A study of Mus musculus with 24 samples.

Results

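The genes described here are 33 genes of red cells, platelets and their precursors, listed by name, and the measurement is the accessibility of their chromatin in cells that are becoming B cells. The list runs from the transcription regulators of the erythroid lineage through globins and red-cell membrane proteins to platelet receptors and granule proteins. Of the 33 genes, 32 matched the 21627 protein-coding genes of the RefSeq reference (GRCm38.p6, the mm10 coordinates). Ahsp, which encodes the chaperone of alpha-globin, had no entry. The window of a gene was its body and 10 kb on both sides, and a peak counted where it overlapped the window by 1 bp.

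Chromatin accessibility was measured by ATAC-seq, in which a transposase cuts and tags open DNA, in bone marrow B-cell progenitors of mice. The 3 stages were small pre-B, the pro-B stage before it, and the still earlier pre-pro-B, from WT mice and from Mki67-/- mice, in which the gene of Ki-67 is disrupted; that protein marks cycling cells and coats mitotic chromosomes. The 6 groups (WT Pre-pro-B, Mki67-/- Pre-pro-B, WT Pro-B, Mki67-/- Pro-B, WT Small pre-B and Mki67-/- Small pre-B) had 4 libraries each, 24 in all. The labels give no age or sex, and do not say whether the libraries of a group or of different stages were made from separate mice; each p-value therefore rests on library-to-library spread, which may be technical.

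Red cells and platelets share a progenitor that is set apart from the lymphoid lineage. In it, Gata1 works with Tal1, Klf1, Nfe2 and the cofactor Zfpm1 at enhancers and promoters that carry GATA sites, E-boxes and CACCC boxes. Globin, haem and membrane genes follow in the red-cell branch, and receptors and granule proteins in the platelet branch. B-cell progenitors do not make most of these products, so their genes are commonly read as lineage-foreign loci in such cells, although several regulators in the list are shared with stem and early lymphoid cells.

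The promoters fell into 3 sets: with a peak in all 24 libraries, in some of them, and in none. Of the 33 genes, 26 had a promoter in the RefSeq table (GRCm38.p6), taken as 250 bases before to 50 after the start; Nfe2, Slc4a1, Ank1, Vwf, Thbs1, Itgb3 and Ahsp were not among them. In the deposited lists, 4 of the 26 promoters (15.4%) had a peak in all 24 libraries, those of Zfpm1, Tfrc, Bpgm and Sptb. Over the 26794 genes with a promoter in the table that share was 36.4%. A further 16 (61.5%) had a peak in 0 of 24 libraries, against 48.8% of these 26794 genes. The table holds more genes than the 21627 protein-coding ones. Shares over it, here and below, therefore also take in other genes, while the listed genes are all protein-coding. These 16 included Gata1, Klf1, Tal1, Alas2, all 4 globin genes and Pf4. The remaining 6 had a peak in 1 to 23 libraries. Gp9 and Treml1 had it chiefly at pro-B, and Epor in 4 small pre-B libraries. Itga2b had one in 3 WT pre-pro-B libraries, Gp1ba in 1 Mki67-/- pre-pro-B library and Kel in 1 WT small pre-B library.

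The 250 bases before the start, from RefSeq and written 5′ to 3′ on the gene's strand, are shown for 7 genes. They are Tfrc and Bpgm (open in 24 libraries), Gp9 and Treml1 (open chiefly at pro-B), and Gata1, Alas2 and Hbb-bs (no promoter peak). Capitals mark matches on either strand to the GATA-factor letters AGATAA and also TGATAA, the Klf1-type box CCNCNCCC, the NF-E2 and AP-1 core TGAGTCA, the Ets core AGGAAG and the Runx letters TGTGGT. Matches can overlap. The short E-box CANNTG was searched but is not marked.
Tfrc (chr16:32608646-32608895, mm10, plus strand): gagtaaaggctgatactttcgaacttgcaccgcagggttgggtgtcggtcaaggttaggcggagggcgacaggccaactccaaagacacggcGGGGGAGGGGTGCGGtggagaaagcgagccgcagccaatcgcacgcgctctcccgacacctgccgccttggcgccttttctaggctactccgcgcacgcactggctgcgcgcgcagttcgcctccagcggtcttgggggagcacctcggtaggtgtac
Bpgm (chr6:34476106-34476355, mm10, plus strand): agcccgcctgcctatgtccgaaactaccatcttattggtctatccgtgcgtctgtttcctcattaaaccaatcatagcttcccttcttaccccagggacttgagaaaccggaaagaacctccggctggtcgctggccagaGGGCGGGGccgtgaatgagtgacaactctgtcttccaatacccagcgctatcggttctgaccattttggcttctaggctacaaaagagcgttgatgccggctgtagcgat
Gp9 (chr6:87777820-87778069, mm10, plus strand): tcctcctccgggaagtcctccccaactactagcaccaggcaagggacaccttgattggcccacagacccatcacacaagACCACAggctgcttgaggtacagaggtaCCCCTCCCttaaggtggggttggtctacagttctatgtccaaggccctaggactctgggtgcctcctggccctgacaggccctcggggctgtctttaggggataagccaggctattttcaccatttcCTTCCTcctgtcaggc
Treml1 (chr17:48359666-48359915, mm10, plus strand): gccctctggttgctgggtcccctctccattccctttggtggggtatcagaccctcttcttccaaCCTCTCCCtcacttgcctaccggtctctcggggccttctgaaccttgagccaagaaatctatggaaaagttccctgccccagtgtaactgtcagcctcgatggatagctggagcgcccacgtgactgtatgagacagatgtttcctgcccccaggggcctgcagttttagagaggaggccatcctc
Gata1 (chrX:7967911-7968160, mm10, minus strand): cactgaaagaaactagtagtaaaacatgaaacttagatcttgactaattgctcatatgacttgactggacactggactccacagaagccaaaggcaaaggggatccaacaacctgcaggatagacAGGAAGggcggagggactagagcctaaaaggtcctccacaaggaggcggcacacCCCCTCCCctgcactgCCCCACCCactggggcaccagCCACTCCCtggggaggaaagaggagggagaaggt
Alas2 (chrX:150547167-150547416, mm10, plus strand): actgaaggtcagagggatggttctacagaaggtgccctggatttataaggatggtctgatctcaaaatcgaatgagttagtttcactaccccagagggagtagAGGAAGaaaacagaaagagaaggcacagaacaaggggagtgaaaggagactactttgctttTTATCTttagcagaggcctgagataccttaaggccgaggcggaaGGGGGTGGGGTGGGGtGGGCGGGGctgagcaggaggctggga
Hbb-bs (chr7:103827929-103828178, mm10, minus strand): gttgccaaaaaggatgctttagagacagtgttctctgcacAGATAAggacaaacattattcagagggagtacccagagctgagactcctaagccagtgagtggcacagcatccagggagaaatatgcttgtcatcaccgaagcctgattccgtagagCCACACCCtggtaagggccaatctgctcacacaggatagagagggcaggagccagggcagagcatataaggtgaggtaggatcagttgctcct

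Among these 7, AGATAA lay in the promoters of Alas2 and Hbb-bs, and CCNCNCCC lay in all 7. Over the 28 promoters of the 26 genes, 8 held AGATAA and 7 held TGATAA, compared with 10.0% and 7.89% of the 32619 promoters in the table. The other shares were 17 of 28 for CANNTG (66.2% of all promoters), 15 for CCNCNCCC (46.2%), 8 for AGGAAG (29.6%), 4 for TGTGGT (13.9%) and 1 for TGAGTCA (4.48%). AGATAA lay in the promoters of Alas2, Epb42, Epor, Gp6, Hbb-bs, Kel, Rhd and Tal1. None of these 8 genes had a promoter peak in all 24 libraries. Only 4 of all 26 genes (15.4%) had one, so with 8 genes this is little different from the whole list. A match is a run of letters and was not tested for binding.

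**Figure D1:**
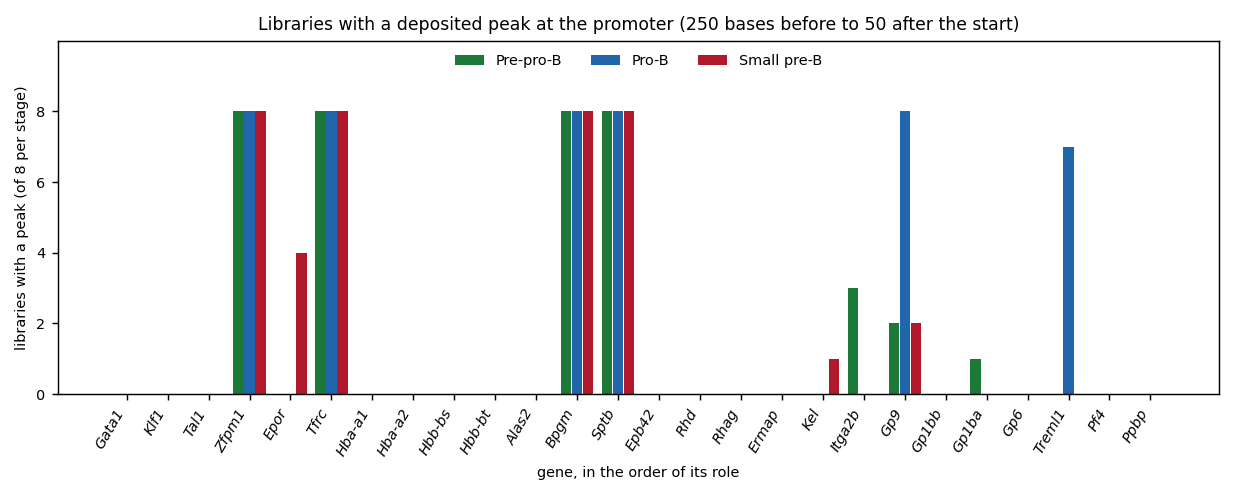
Libraries with a deposited peak at the promoter of each of 26 genes (vertical axis, of 8 per stage, both genotypes together; colours are stages). Zfpm1, Tfrc, Bpgm and Sptb stand at 8 in every stage, Gp9 at 8 and Treml1 at 7 in pro-B, and 16 genes at 0.

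The promoter peak of Treml1, a receptor of platelet granules, was found in 7 of 8 pro-B libraries and in 0 of the 16 others (chr17:48359740-48359997). It ranked between the top 56.9% and the top 82.6% of the lists that held it, so it was a weak peak and was never among the 40000 strongest. In all, 60 genes had a promoter peak in at least 7 of 8 pro-B libraries and in 0 of the other 16. The promoter peak of Gp9, which encodes a subunit of the platelet receptor for von Willebrand factor, was present in 8 of 8 pro-B, 2 of 8 pre-pro-B and 2 of 8 small pre-B libraries (chr6:87777900-87778473). The promoter of Epor, the erythropoietin receptor, had a peak in 4 of 8 small pre-B libraries and in 0 of the 16 others (chr9:21963555-21963850). Of the other genes of the Gp9 complex, Gp1bb had no promoter peak and Gp1ba had one in 1 library.

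The 24 lists held 54387 to 88946 merged peaks, and the background coverage recovered from them, which stands for depth, ran from 1.86 to 5.3. Since the lists differ in length, stages were compared among the 40000 peaks of highest -log10 q of each library, called the strongest peaks, with the deposited lists beside them. Genotypes were compared in the deposited lists. The labelled cell type was checked on 13 B-lineage genes, whose summed strongest peaks ran from 29 to 35 in pre-pro-B, 70 to 76 in pro-B and 60 to 71 in small pre-B libraries. Vpreb2 was at 0 in pre-pro-B cells. T, NK and innate lymphoid markers ran from 27 to 37, 14 to 17 and 9 to 14 at the same stages, with none of 13 at 0 in pre-pro-B and Cd3e, Cd8a, Ncr1, Gzma and Gzmb at 0 in both later stages, with Bcl11b also at 0 in pro-B. Myeloid markers ran from 23 to 27, 12 to 15 and 18 to 23, with Ly6g and S100a8 at 0 throughout and S100a9 in pro-B. Stem and multipotent progenitor markers ran from 32 to 39, 24 to 31 and 18 to 23, with none of 10 at 0. In pre-pro-B these sums were 38, 39, 39 and 37 in WT and 34, 34, 32 and 33 in Mki67-/- libraries, without overlap. The genotypes overlapped at the later stages, and so did their deposited pre-pro-B sums (72 to 86 and 67 to 75). Mast cell and basophil markers ran from 6 to 9, 7 to 13 and 6 to 9, with Mcpt8 and Fcer1a at 0 throughout and Cpa3 in pre-pro-B and small pre-B. Plasmacytoid dendritic markers ran from 29 to 38, 35 to 37 and 34 to 41, with Klk1 at 0 in both later stages and Clec10a in small pre-B. The part of these other cells in the results that follow was not tested, and in such bulk libraries fewer open cells and less signal per cell cannot be told apart.

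The summed strongest peaks of the listed genes ran from 52 to 61 in pre-pro-B, from 53 to 60 in pro-B and from 56 to 62 in small pre-B libraries, and the ranges of the 3 stages overlapped. The means were 56.5 ± 2.98, 56.5 ± 2.14 and 59.0 ± 2.14 (SD, n = 8 each), with no test made on the sum. The deposited lists went the other way, with sums of 122 ± 11.5, 116 ± 4.38 and 97.5 ± 11.5. Gata1, Hbb-bs, Alas2, Treml1 and Kel had no strongest peak in any of the 24 libraries. In each group Zfpm1 and Itgb3 had the most, followed by Ermap, Klf1 or Sptb. Gene bodies run from 815 bp (Hba-a1) to 175666 bp (Ank1), so this order is not one of level.

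**Figure D2:**
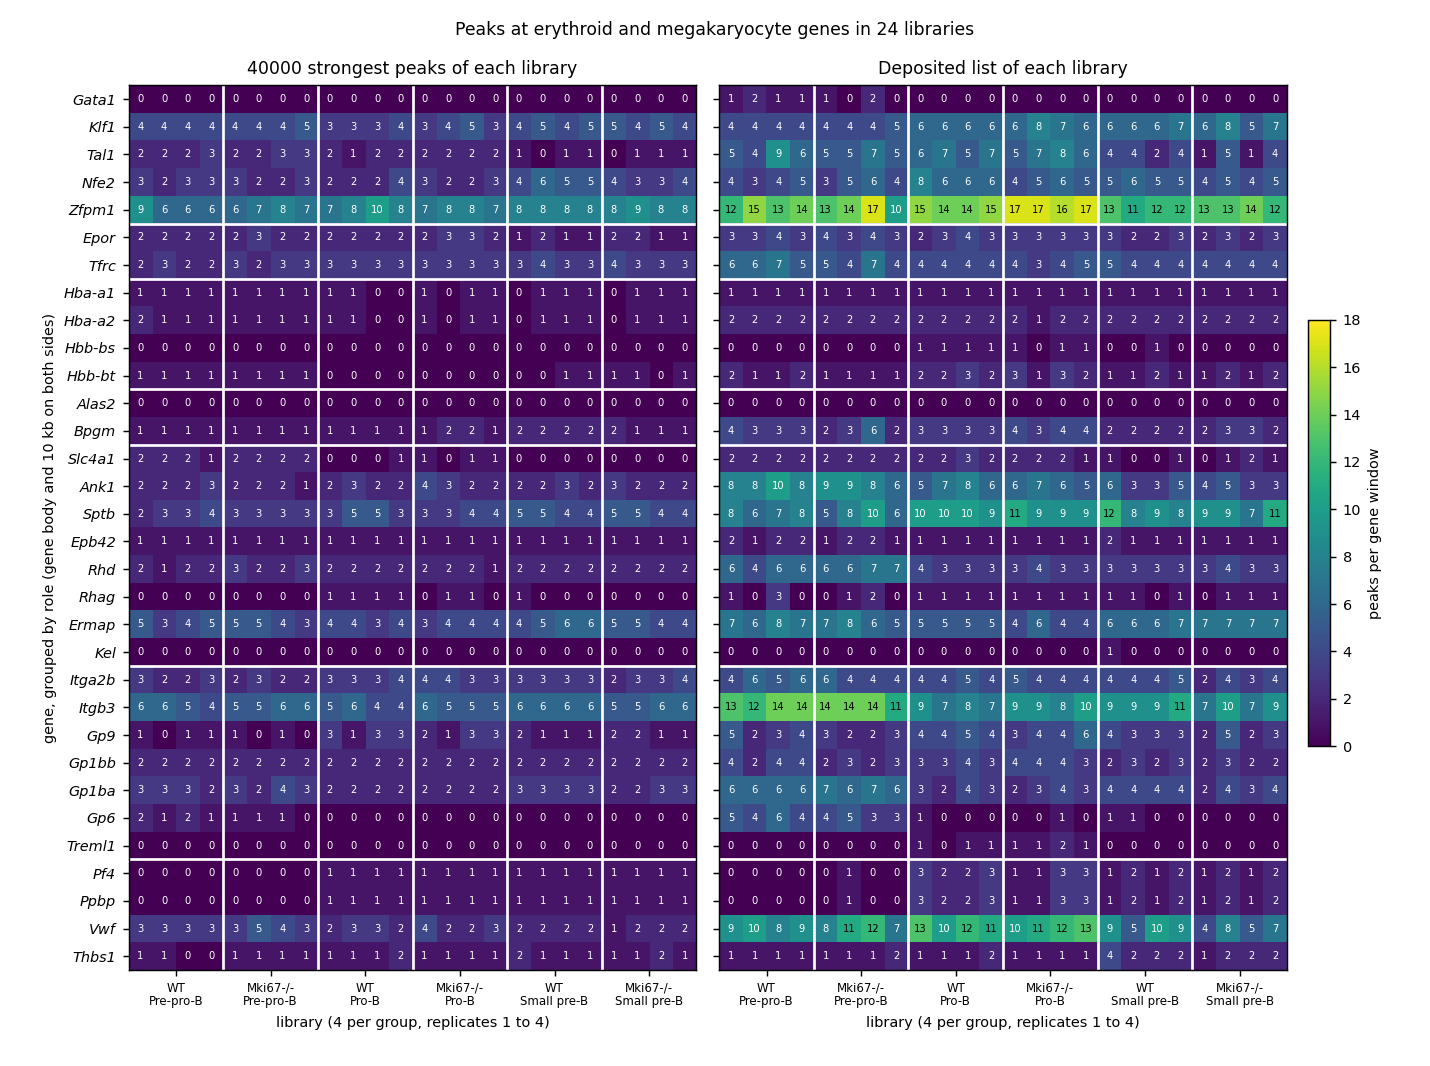
Peaks per gene window (numbers and colour) for 32 genes in 24 libraries, grouped by role, among the 40000 strongest peaks (left) and in the deposited lists (right). Pf4 and Ppbp change from 0 to 1 between the pre-pro-B and pro-B columns on the left, and Gp6 is high only in the pre-pro-B columns on the right.

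From pre-pro-B to pro-B, 5 of the 27 listed genes that could be tested gained strongest peaks (Pf4, Ppbp, Itga2b, Gp9 and Rhag) and 4 lost them (Hbb-bt, Gp1ba, Slc4a1 and Gp6). All 5 gains but Rhag were at platelet genes, and Pf4 and Ppbp share the same peak. Among the 4 losses, Gp1ba and Gp6 were platelet genes too. The 32 genes include 7 platelet receptor genes and 4 genes of platelet granules and secreted proteins. Calls are at an adjusted p under 0.05 by an exact two-sided permutation test on mean peak number, with stage permuted within genotype and the Benjamini-Hochberg method applied over all genes tested. Over all 16214 genes tested, 45.9% were called (24.7% higher and 21.1% lower), so a call at this step was common among genes at large. The median difference was 0.0 over the listed genes and over all genes. In the deposited lists the split was 8 higher and 8 lower of 30, against 46.8% of all genes called (21.2% higher and 25.6% lower), and 5 of the 9 genes called among the strongest peaks were also called there, Hbb-bt in the opposite direction.

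From pro-B to small pre-B, 2 of 26 listed genes gained strongest peaks (Nfe2 and Gp1ba) and 1 lost them (Tal1). Over all 15740 genes tested, 23.3% were called, 11.4% higher and 11.9% lower. The median difference was 0.12 over the listed genes and 0.0 over all genes. In the deposited lists, which held 65298 to 74698 merged peaks on average in these groups, 2 rose and 9 fell of 29, with 22.7% of all genes called (6.12% higher and 16.6% lower) and a median difference of -0.5 against -0.25 for all genes. Leaving out 1 library at a time gave 2 to 4 higher and 1 to 3 lower among the strongest peaks.

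**Figure D3:**
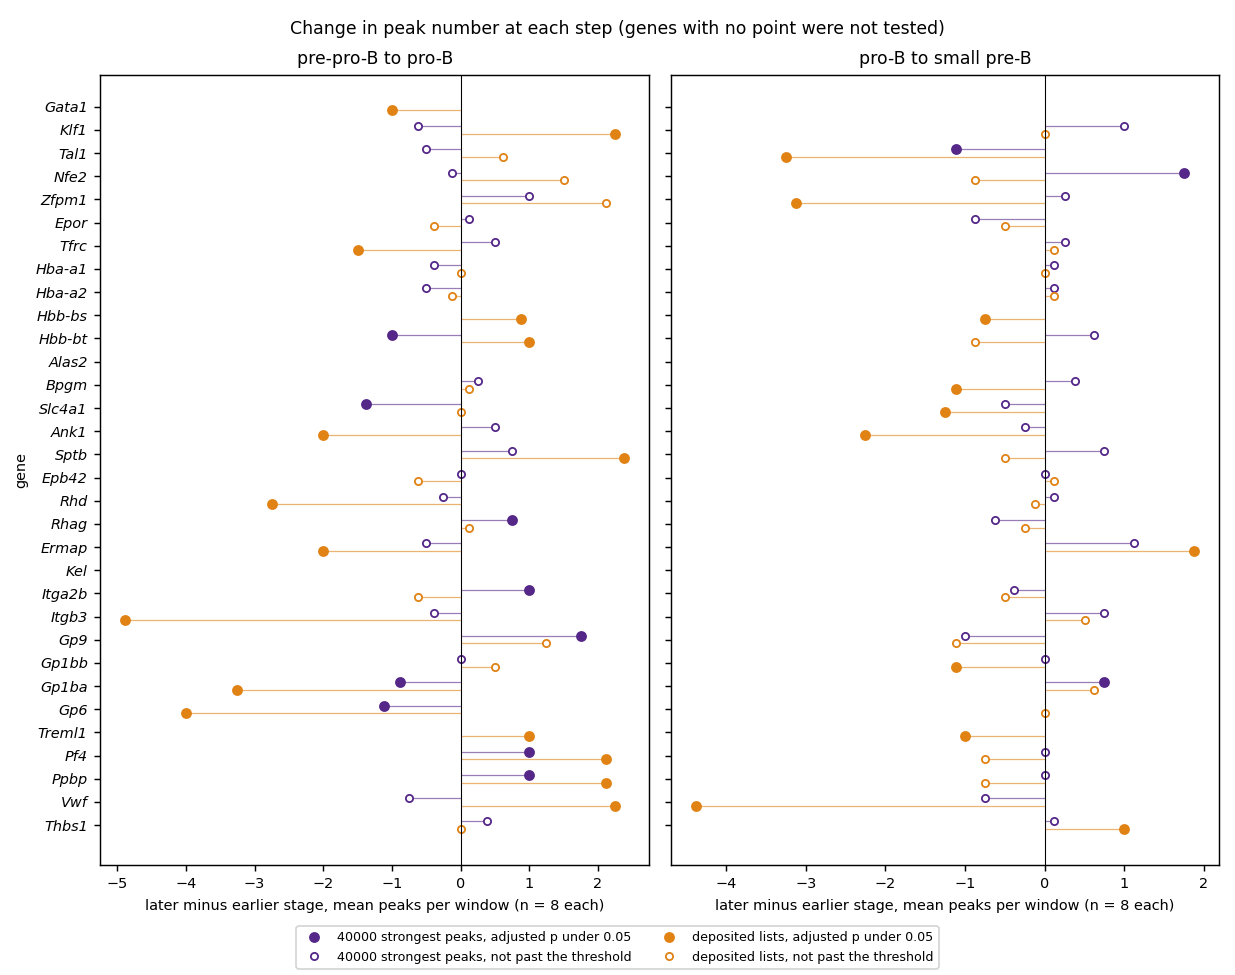
Difference in mean peaks per gene window between consecutive stages (horizontal axis, 8 libraries each, both genotypes together) for each gene among the strongest peaks and in the deposited lists; filled points passed an adjusted p of 0.05. Hbb-bt moves in opposite directions in the 2 kinds of list (-1 and 1), and Itgb3 and Gp6 show the largest losses at the first step in the deposited lists.

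In the 32 windows together, 223 regions were open in at least 1 library. Of these, 39 had a peak in all 24 libraries, and 14 of the 39 overlapped the promoter of another gene while 4 overlapped a listed gene's own promoter. Nfe2, Slc4a1, Ank1, Vwf, Thbs1 and Itgb3 had no promoter in the table, so their starts could not be counted among the 4. At Nfe2 and Thbs1 a region open in all 24 libraries covered a gene end. Another 50 had a peak in 1 library. A peak in 8 of 8 pre-pro-B and 0 of 16 other libraries was found in 10 regions (10908 of all 159336 regions). The same pattern held for pro-B in 1 region (1644 of all) and for small pre-B in 2 regions (855 of all). Tested by the presence of a strongest peak, 15 of 46 regions gained and 14 lost it from pre-pro-B to pro-B, where 74.5% of all regions tested were called (35.2% gained and 39.4% lost). From pro-B to small pre-B, 9 of 35 gained and 5 lost it, where 47.0% were called (20.4% and 26.6%). The reference gives gene bodies but no exons, so regions are placed as within a gene body or in its flank.

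Gata1, the master regulator of both branches, had weak peaks in 6 of the 8 pre-pro-B libraries and none listed later (chrX:7959260-7976663). The deposited lists held 1, 2, 1 and 1 peaks of its window in the WT pre-pro-B libraries and 1, 0, 2 and 0 in the Mki67-/- ones, and 0 in all 16 later libraries. The fall from 1 ± 0.756 to 0 (n = 8 each) passed the exact permutation test in the deposited lists (adjusted p = 0.0161), and none of these peaks was among the strongest. The pre-pro-B peaks lay at 1 region, 3740 bp into the gene from its start (chrX:7963892-7964447), with a peak in 4 WT and 2 Mki67-/- pre-pro-B libraries. It ranked between the top 82.1% and the top 95.8% of those lists. Mean background coverage in pre-pro-B was 4.29 for WT and 3.25 for Mki67-/- libraries, and between 2.58 and 3.15 in the later groups, and the part of depth in these weak peaks was not tested.

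Klf1, which activates the adult globin genes, kept an open region 1323 bp into its body in all 24 libraries (chr8:84902826-84903783) (ranked from 2.47% to 9.96% from the top of the lists). Its promoter had no peak in any library. Strongest peaks in its window numbered 4.12 ± 0.354, 3.5 ± 0.756 and 4.5 ± 0.535 at the 3 stages (n = 8 each), and neither step passed the test. The deposited count rose from 4.12 ± 0.354 to 6.38 ± 0.744 at the first step (exact permutation, adjusted p = 0.00207). Several of these regions belong to neighbours: the promoters of Gcdh and Dnase2a lie in the window and were open in all 24 libraries.

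Tal1, the helix-loop-helix partner of Gata1, had regions on both sides of its body that left the strongest peaks. It had 2, 2, 2 and 3 strongest peaks in WT pre-pro-B libraries and 2, 2, 3 and 3 in the Mki67-/- ones, then 2, 1, 2 and 2 in WT and 2 in each Mki67-/- pro-B library. In small pre-B libraries it had 1, 0, 1 and 1 in WT and 0, 1, 1 and 1 in Mki67-/- cells, and of the 16 earlier libraries 1 had as few as 1. The fall from 1.88 ± 0.354 to 0.75 ± 0.463 (n = 8 each) passed the exact permutation test at the second step (adjusted p = 0.0129). Tal1 has 2 starts, at 115056426 and 115057811, and each distance given is from the nearer one. The region centred at -8303 bp (chr4:115047645-115048600) was a strongest peak in 8 of 8 pre-pro-B libraries and in 0 of 16 later ones (adjusted p = 0.000924 at the first step). The region 17922 bp downstream (chr4:115075327-115076139) was a strongest peak in 8 pre-pro-B, 7 pro-B and 0 small pre-B libraries (adjusted p = 0.00669 at the second step). Another region, 5771 bp into the gene (chr4:115062948-115064215), went from 0 to 8 libraries at the first step and stood at 5 in small pre-B cells. The deposited count of the window also fell at the second step, from 6.38 ± 1.06 to 3.12 ± 1.55 (n = 8 each; exact permutation, adjusted p = 0.0106). At the first step the deposited count did not fall (5.75 ± 1.58 to 6.38 ± 1.06, adjusted p = 0.639 by the same exact test).

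Nfe2, the haematopoietic subunit of the NF-E2 factor, gained strongest peaks in small pre-B cells. Its counts were 2, 2, 2 and 4 in WT and 3, 2, 2 and 3 in Mki67-/- pro-B libraries, then 4, 6, 5 and 5 in WT and 4, 3, 3 and 4 in Mki67-/- small pre-B libraries. The WT groups met at 4 and the Mki67-/- groups at 3. The mean rose from 2.5 ± 0.756 to 4.25 ± 1.04 (n = 8 each; exact permutation, adjusted p = 0.0272). The deposited lists gave a difference of opposite sign, -0.88 (adjusted p = 0.185). The region that became a strongest peak in 8 of 8 small pre-B and 0 of 16 earlier libraries lies in the gene body (chr15:103250152-103250653, adjusted p = 0.00217). Another region, over the gene's end of higher coordinate (chr15:103257855-103258804), was open in all 24 libraries, between the top 0.676% and the top 29.0%.

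Zfpm1, the cofactor of Gata1, kept its count of strongest peaks while some of the regions that held them changed. Its strongest peaks ran from 6 to 9 in pre-pro-B, 7 to 10 in pro-B and 8 to 9 in small pre-B libraries, overlapping ranges, and neither step passed the test. Its promoter (chr8:122281056-122282204) was among the strongest peaks of all 24 libraries, between the top 0.87% and the top 6.35%. A region 3868 bp downstream of the start (chr8:122285762-122286255) had no peak in 8 pre-pro-B libraries and a strongest peak in all 16 later ones, between the top 4.82% and the top 12.1% (adjusted p = 0.000924). A region 33082 bp downstream (chr8:122314720-122315726) was a strongest peak in 8 of 8 pre-pro-B and 0 of 16 later libraries (adjusted p = 0.000924). The region past the gene at 63456 bp (chr8:122345076-122346118) followed the first pattern, with a strongest peak in 0 of 8 pre-pro-B and all 16 later libraries. The deposited count fell from 15.6 ± 1.3 to 12.5 ± 0.926 at the second step (n = 8 each; exact permutation, adjusted p = 0.00681).

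**Figure D4:**
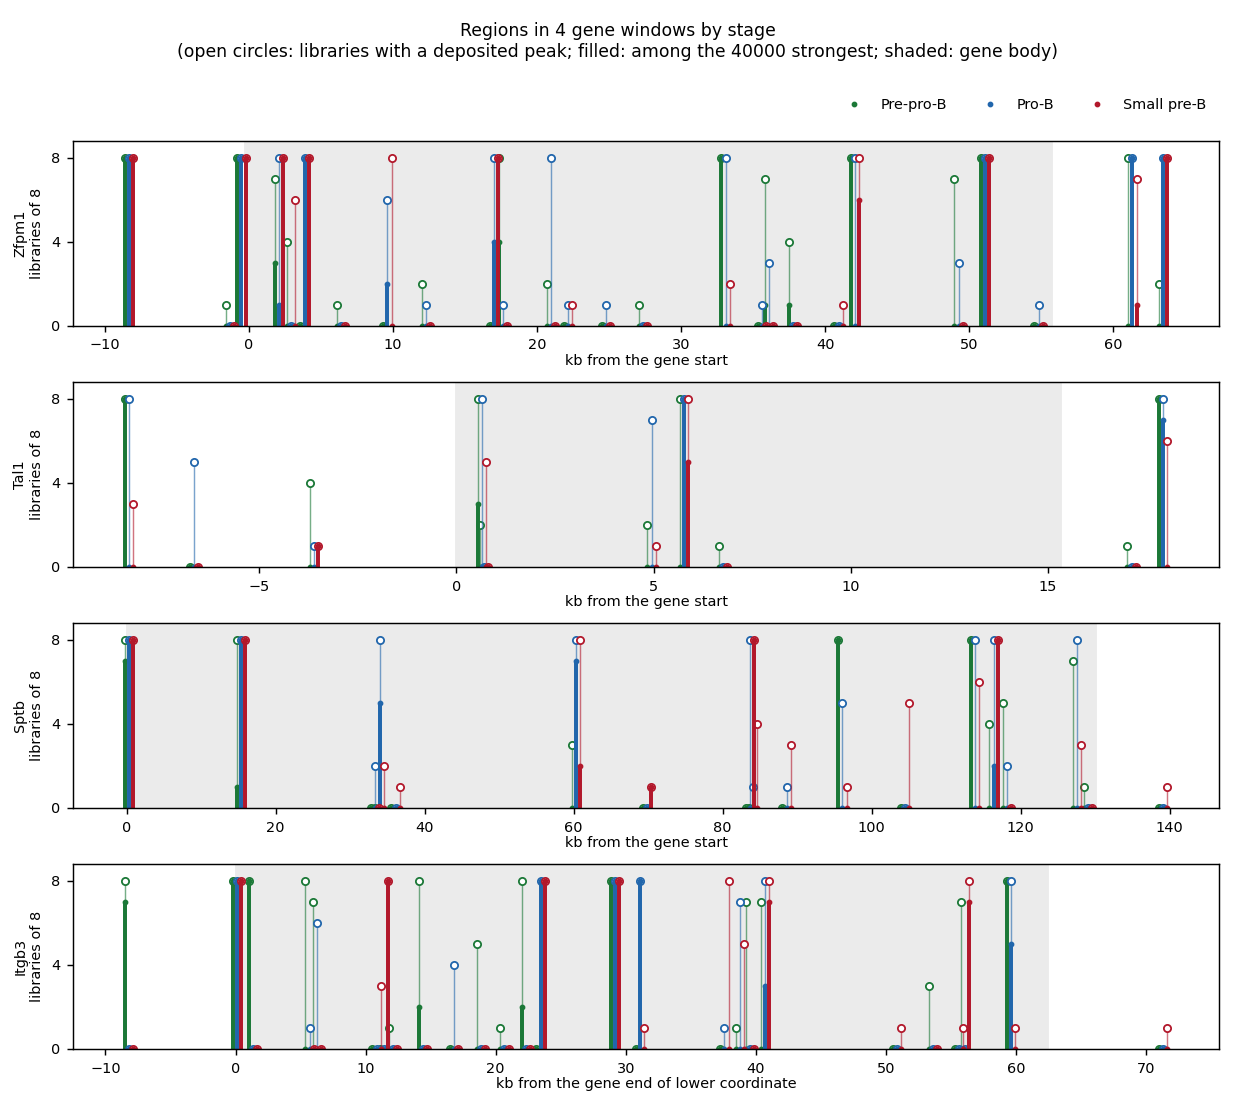
Regions in the windows of Zfpm1, Tal1, Sptb and Itgb3 by distance from the gene start, or for Itgb3 from the gene end of lower coordinate (horizontal axis, kb), and the number of libraries of 8 per stage with a peak there (vertical axis; open circles deposited, filled strongest peaks). Each window holds a region filled to 8 in pre-pro-B alone, and those of Zfpm1 and Itgb3 also hold regions filled to 8 in both later stages alone. For Tal1, distances are from the nearer of its starts.

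Of the receptor and iron-uptake genes, Tfrc had an open promoter in every library, while Epor had a promoter peak in 4 libraries. Tfrc, the transferrin receptor that dividing cells use for iron, had its promoter region (chr16:32608417-32609746) among the top 0.291% to 5.83% of every list. Its window held 2 to 3 strongest peaks in pre-pro-B, 3 in each pro-B and 3 to 4 in small pre-B libraries. The deposited count fell from 5.5 ± 1.2 to 4 ± 0.535 at the first step (n = 8 each; exact permutation, adjusted p = 0.031). Epor had a region in its body 1368 bp from the start (chr9:21961438-21962977) that was a strongest peak in 8 pre-pro-B, 8 pro-B and 3 small pre-B libraries (adjusted p = 0.0543 at the second step). Another peak of its window is the promoter of Swsap1, open in all 24 libraries (chr9:21955278-21956443), between the top 0.0228% and the top 3.33%.

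The globin genes had no promoter peak in any library, and the peaks of their windows lay elsewhere. Hba-a1 and Hba-a2, the adult alpha-globins, had 1 and 2 deposited peaks in nearly every library, which lie mainly at the promoters of the neighbouring Hbq1b (chr11:32286608-32287247) and Hbq1a (chr11:32299914-32300349). Hbb-bs, an adult beta-globin, had no strongest peak; in the deposited lists 7 of 8 pro-B libraries, 0 of 8 pre-pro-B libraries and 1 of 8 small pre-B libraries had a peak. The pro-B peak lies 5841 bp past the start (chr7:103821936-103822237), between the top 76.0% and the top 97.1%. The mean rose from 0 to 0.875 ± 0.354 and fell to 0.125 ± 0.354 (n = 8 each; exact permutation, adjusted p = 0.0065 and 0.0454).

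Hbb-bt, the other adult beta-globin, showed opposite changes in the 2 kinds of list. It had 1 strongest peak in each of 8 pre-pro-B libraries and 0 in each of 8 pro-B libraries, with no overlap (exact permutation, adjusted p = 0.00164). Small pre-B libraries had 0, 0, 1 and 1 in WT and 1, 1, 0 and 1 in Mki67-/- cells. The peak lies at chr7:103812016-103812807, over the end of the gene at 1511 bp from its start, and was in all 24 deposited lists, ranked from the top 25.8% to the top 88.3%. The steps count different peaks in the 2 kinds of list, since the pro-B peak given for Hbb-bs (chr7:103821936-103822237) also lies in this window. The deposited count of the window rose from 1.25 ± 0.463 to 2.25 ± 0.707 at the same step (n = 8 each; adjusted p = 0.0439).

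Of the haem and red-cell metabolism genes, Alas2, the erythroid enzyme that starts haem synthesis, had no peak in any of the 24 deposited lists. Bpgm, the mutase that sets the oxygen affinity of haemoglobin, had an open promoter region in all 24 libraries (chr6:34475666-34476783), between the top 2.18% and the top 7.29%. Its strongest peaks numbered 1 in each pre-pro-B library and 1 to 2 at both later stages, and neither step passed the test. The deposited count fell from 3.38 ± 0.518 to 2.25 ± 0.463 at the second step (n = 8 each; exact permutation, adjusted p = 0.0128).

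Among the 8 red-cell membrane genes, Slc4a1 fell and Rhag rose at the first step. Slc4a1, the anion exchanger of the red-cell membrane, had 2, 2, 2 and 1 strongest peaks in WT and 2 in each Mki67-/- pre-pro-B library, then 0, 0, 0 and 1 in WT and 1, 0, 1 and 1 in Mki67-/- pro-B libraries, and 0 in all 8 small pre-B libraries. The stages met at 1 peak. The fall from 1.88 ± 0.354 to 0.5 ± 0.535 (n = 8 each) passed the exact permutation test (adjusted p = 0.00308). Both stages had a mean of 2 in the deposited lists, where the fall came at the second step, to 0.75 ± 0.707 (adjusted p = 0.039). The region that left the strongest peaks (chr11:102375047-102375892) overlaps the promoter of Gm34253. It was a strongest peak in 8 pre-pro-B and 0 later libraries. The gene body ends at chr11:102365281, so this region lies at the outer edge of the 10 kb flank and mostly beyond it. A flank of 5 kb does not reach it.

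Rhag, the ammonium channel of the Rh complex, had 0 strongest peaks in 8 pre-pro-B libraries, 1 in each WT pro-B library, and 0, 1, 1 and 0 in Mki67-/- pro-B libraries. The rise to 0.75 ± 0.463 (n = 8) passed the exact permutation test (adjusted p = 0.0154). Only 1 small pre-B library had one, and in the deposited lists the difference was 0.12 (adjusted p = 1.0). The region lies 13559 bp into the gene (chr17:40824523-40824893).

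Sptb, the beta-spectrin of the membrane skeleton, exchanged strongest peaks along its body of 130060 bp. Regions at 113911 bp (chr12:76596267-76597004) and 96076 bp (chr12:76613584-76615358) from the start were strongest peaks in 8 pre-pro-B and 0 later libraries (adjusted p = 0.000924 each). The region at 83711 bp (chr12:76626628-76627044) was one in 8 of 8 small pre-B and 0 earlier libraries (adjusted p = 0.00217), and the region at 15383 bp (chr12:76694779-76695548) in 1 pre-pro-B and all 16 later libraries. Its strongest peaks rose in neither step by the test; the deposited count rose from 7.25 ± 1.58 to 9.62 ± 0.744 at the first (exact permutation, adjusted p = 0.0147, n = 8 each).

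Ermap, an erythroid membrane protein that carries blood-group antigens, held a region that left the strongest peaks in pro-B and returned to them. At 8429 bp from the start (chr4:119181126-119182005) it was a strongest peak in 8 pre-pro-B, 0 pro-B and 8 small pre-B libraries (adjusted p = 0.000924 and 0.00217 at the 2 steps). The deposited count of the window followed, from 6.75 ± 1.04 to 4.75 ± 0.707 and then 6.62 ± 0.518 (n = 8 each; exact permutation, adjusted p = 0.00866 and 0.00681). Rhd, which carries the Rh blood-group antigen, fell from 6 ± 0.926 to 3.25 ± 0.463 deposited peaks at the first step (adjusted p = 0.0036). Its region at 27595 bp (chr4:134891807-134892455) was a strongest peak in 7 of 8 pre-pro-B and 0 later libraries. Ank1, which anchors spectrin to the anion exchanger, fell in the deposited lists at both steps, from 8.25 ± 1.16 to 6.25 ± 1.04 and to 4 ± 1.2 (n = 8 each; exact permutation, adjusted p = 0.0223 and 0.0301). Epb42 had 1 strongest peak in each library, at the promoter of Ccndbp1 (chr2:121007866-121009116). Kel, a blood-group endopeptidase, had 1 deposited peak in 1 of the 24 libraries.

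Of the 7 platelet receptor genes, Itga2b and Gp9 rose and Gp1ba and Gp6 fell at the first step. Itga2b, the alpha subunit of the fibrinogen receptor (chr11:102453297-102469883), had 3, 2, 2 and 3 strongest peaks in WT and 2, 3, 2 and 2 in Mki67-/- pre-pro-B libraries, then 3, 3, 3 and 4 in WT and 4, 4, 3 and 3 in Mki67-/- pro-B libraries. The stages met at 3. The rise from 2.38 ± 0.518 to 3.38 ± 0.518 (n = 8 each) passed the exact permutation test narrowly (adjusted p = 0.0281). It was lost without WT Pre-pro-B replicate 2 or 3 or Mki67-/- Pre-pro-B replicate 1, 3 or 4 (adjusted p = 0.0508 to 0.0516), and the deposited lists gave -0.62 (adjusted p = 0.331). The region behind it lies in the flank, 22537 bp from the start (chr11:102446652-102448039).

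Gp9 had 1, 0, 1 and 1 strongest peaks in WT and 1, 0, 1 and 0 in Mki67-/- pre-pro-B libraries, then 3, 1, 3 and 3 in WT and 2, 1, 3 and 3 in Mki67-/- pro-B libraries. The mean rose from 0.625 ± 0.518 to 2.38 ± 0.916 (n = 8 each; exact permutation, adjusted p = 0.0131). Its promoter region was a strongest peak in 5 pro-B libraries and in 0 others (adjusted p = 0.0411), and the flank region 11346 bp away (chr6:87788902-87789929), inside Rab43, in 0 of 8 pre-pro-B and all 16 later libraries. Counted within 5 kb, the difference was 0.12 (adjusted p = 1.0).

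Gp1ba, the subunit that binds von Willebrand factor, had 2 to 4 strongest peaks in pre-pro-B, 2 in each pro-B and 2 to 3 in small pre-B libraries. The fall from 2.88 ± 0.641 to 2 and the rise to 2.75 ± 0.463 passed the exact permutation test (n = 8 each; adjusted p = 0.0237 and 0.0302). Counted within 5 kb of the gene, both differences were 0.0 (adjusted p = 1.0). The steady peaks of its window are the promoters of Rnf167 and Slc25a11 (chr11:70646564-70647737) and of Pfn1 (chr11:70653238-70655997). Gp1bb, whose promoter was closed, had 2 strongest peaks in each of the 24 libraries, both in its flanks. The deposited count of Gp1ba fell from 6.25 ± 0.463 to 3 ± 0.756 at the first step (n = 8 each; exact permutation, adjusted p = 0.00207), and that of Gp1bb from 3.5 ± 0.535 to 2.38 ± 0.518 at the second (adjusted p = 0.0395).

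Treml1 had peaks in pro-B libraries alone. Its deposited counts were 1, 0, 1 and 1 in WT and 1, 1, 2 and 1 in Mki67-/- pro-B libraries, and 0 in all 16 others. The stages met at 0 through 1 WT library. The rise to 1 ± 0.535 and the fall back to 0 passed the exact permutation test (n = 8 each; adjusted p = 0.0065 and 0.0153).

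Gp6, the platelet collagen receptor, was open in pre-pro-B cells and nearly closed afterwards. It had 2, 1, 2 and 1 strongest peaks in WT and 1, 1, 1 and 0 in Mki67-/- pre-pro-B libraries, and 0 in all 16 later libraries. The fall from 1.12 ± 0.641 to 0 (n = 8 each) passed the exact permutation test (adjusted p = 0.00587). The deposited counts fell from 4.25 ± 1.04 to 0.25 ± 0.463 (adjusted p = 0.00207 by the same exact test). Regions of the gene body 27153 bp and 33727 bp from the start (chr7:4370236-4370946 and chr7:4363740-4364294) had a peak in 8 of 8 pre-pro-B and 0 of 16 other libraries.

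Itgb3, the beta subunit of the fibrinogen receptor, held 4 of the 10 regions found in pre-pro-B alone and 1 of the 2 found in small pre-B alone. Its strongest peaks ran from 4 to 6 in pre-pro-B, 4 to 6 in pro-B and 5 to 6 in small pre-B libraries and passed neither test. In the deposited lists the counts were 13, 12, 14 and 14 in WT and 14, 14, 14 and 11 in Mki67-/- pre-pro-B libraries, then 9, 7, 8 and 7 in WT and 9, 9, 8 and 10 in Mki67-/- pro-B libraries, with no overlap. The fall from 13.2 ± 1.16 to 8.38 ± 1.06 (n = 8 each) passed the exact permutation test (adjusted p = 0.00207).

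Within Itgb3, the region 1353 bp from the gene end of lower coordinate (chr11:104609009-104609696) was a strongest peak in 8 of 8 pre-pro-B and 0 of 16 later libraries. The region at 23451 bp (chr11:104631204-104631698) had no peak in pre-pro-B and a strongest peak in all 16 later libraries. The region at 31086 bp (chr11:104638887-104639284) was a strongest peak in 8 of 8 pro-B and 0 other libraries, and the one at 11417 bp (chr11:104619097-104619736) in 8 of 8 small pre-B and 0 others. The first 3 changes had an adjusted p of 0.000924 and the gain in small pre-B one of 0.00217. Between them lies a region open in all 24 libraries (chr11:104636672-104637707), between the top 1.08% and the top 13.8%.

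Of the 4 genes of platelet granules and secreted proteins, Pf4 and Ppbp rose together. Pf4 and Ppbp, chemokines stored in platelet granules, are neighbours on chromosome 5. Each had 0 strongest peaks in all 8 pre-pro-B libraries and 1 in all 8 pro-B and all 8 small pre-B libraries, with no overlap (exact permutation, adjusted p = 0.00164 at the first step, n = 8 each). Both counts are the same peak, 1629 bp from the start of Pf4 and 5546 bp from that of Ppbp (chr5:90773895-90774232), between the top 16.2% and the top 42.7% of the lists. Neither promoter had a peak in any library. The deposited count of either window rose from 0.125 ± 0.354 to 2.25 ± 0.886 at the first step (adjusted p = 0.00475).

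Vwf, the adhesive protein that binds the Gp1ba complex, did not pass the test among the strongest peaks. Its deposited count rose from 9.25 ± 1.67 to 11.5 ± 1.2 and fell to 7.12 ± 2.23 (n = 8 each; exact permutation, adjusted p = 0.0418 and 0.0106). Thbs1, an adhesive protein of platelets and other cells, kept the region over its end of lower coordinate, which also holds the promoter of Gm13986, in all 24 libraries (chr2:118110947-118112176). Its deposited count rose from 1.12 ± 0.354 to 2.12 ± 0.835 at the second step (adjusted p = 0.0395).

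The loss of Ki-67 was compared next, and no listed gene was called. Across stages, with genotype permuted within stage, the exact permutation test called 0 of 30 listed genes in the deposited lists, of which 0 had an unadjusted p under 0.05. Over all 17594 genes tested, 0.0% were called and 893 had an unadjusted p under 0.05. Among the strongest peaks it called 0 of 27, with 0 listed genes and 725 of all genes under 0.05 unadjusted. The smallest p that this design allows is 5.83e-06. The genes with the smallest p were Zfpm1, with 13.3 ± 1.37 peaks in WT and 14.4 ± 2.35 in Mki67-/- libraries, Rhd (3.92 ± 1.31 and 4.33 ± 1.67) and Klf1 (5.42 ± 1.08 and 5.83 ± 1.47) among those with higher values in Mki67-/- cells (n = 12 each; exact permutation, p = 0.104, 0.204 and 0.261). On the other side were Itga2b (4.58 ± 0.793 and 4 ± 0.953), Gp6 (1.83 ± 2.25 and 1.33 ± 1.87) and Nfe2 (5.25 ± 1.29 and 4.67 ± 0.888), with p = 0.13, 0.148 and 0.215 by the same exact test. The adjusted p was 1.0 for each of the 6.

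Within a stage, 4 against 4 libraries cannot give a p under 0.0286, and no gene of any kind was called (0.0% in each stage). Unadjusted, 119, 219 and 217 of all genes and 0, 1 and 0 listed genes were under 0.05 by this exact test in the 3 stages in order. Zfpm1 in pro-B cells was the listed gene that reached this limit. It had 15, 14, 14 and 15 deposited peaks in WT and 17, 17, 16 and 17 in Mki67-/- pro-B libraries, with no overlap (14.5 ± 0.577 and 16.8 ± 0.5, n = 4 each; exact permutation, p = 0.0286, adjusted p = 1.0). Among its strongest peaks the groups overlapped (8.25 ± 1.26 and 7.5 ± 0.577). The steps themselves were set against each other between genotypes, and 0 of 27 and 0 of 26 listed genes differed (0.0% of all genes in each case, with 282 and 449 genes under 0.05 unadjusted). Bpgm was the only one under 0.05 unadjusted, in the second step (difference of steps -1.25, exact permutation p = 0.0306, adjusted p = 1.0).

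No region of the windows was called by genotype either, 0 of 117 tested against 0.0% of all 80884 regions, of which 1978 had an unadjusted p under 0.05. Chosen after their values were seen, regions with a gap of at least 5 libraries between genotypes were one at Gp9 (chr6:87779481-87779763, 7 of 12 WT and 2 of 12 Mki67-/- libraries) and one at Gp6 (chr7:4354276-4354654, 6 and 1 of 12), with exact permutation p = 0.0459 and 0.0306 (adjusted p = 1.0). The summed strongest peaks of the list were 59, 62, 61 and 61 in WT and 58, 58, 56 and 57 in Mki67-/- small pre-B libraries. These 2 groups did not overlap, while the groups of the other stages did, and so did the deposited sums of small pre-B cells (93 to 111 and 80 to 111); no test was made on the sums.

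Other genes of the same programmes were described from 3 lists. Of 42 other erythroid genes, 35 were tested at the first step, and 9 gained and 6 lost strongest peaks, with a median difference of 0.12. Over all genes 24.7% rose and 21.1% fell at this step, and 11.4% rose and 11.9% fell at the second. Gfi1b, a repressor needed in both branches, rose from 1.5 ± 0.756 to 6 ± 0.535 peaks (n = 8 each; exact permutation, adjusted p = 0.00164). Samd14 rose from 1.25 ± 0.463 to 3.75 ± 0.463, Car2, a carbonic anhydrase, from 1 to 3 ± 0.926, and Mxi1, an antagonist of Myc, from 3.75 ± 0.463 to 5.38 ± 0.518. Sox6, which helps to silence embryonic globin, fell from 6.62 ± 0.744 to 3.62 ± 0.744, Bnip3l, which clears mitochondria from reticulocytes, from 1.88 ± 0.354 to 1, Xpo7 from 5.25 ± 0.707 to 3.38 ± 0.916 and Cpox, a haem enzyme, from 3.88 ± 0.641 to 2.75 ± 0.463. The largest adjusted p among these 8 was 0.0154. At the second step 7 rose and 4 fell of 35 tested. Cpox rose to 4, Icam4 from 3 to 4, Mxi1 to 7.38 ± 0.916 and Add2, an adducin of the membrane skeleton, from 0.125 ± 0.354 to 1.12 ± 0.354. Hemgn fell from 4.75 ± 0.463 to 3, Aqp1, a water channel, from 2 to 0.25 ± 0.463 and Samd14 to 2. The largest adjusted p among these 7 was 0.0129.

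Of 41 other megakaryocyte genes, 40 were tested at the first step, where 11 rose and 14 fell, with a median difference of -0.5, where 45.9% of all genes were called (24.7% higher and 21.1% lower). Mylk, a myosin light-chain kinase, rose from 1.62 ± 0.744 to 9.12 ± 1.13 peaks (n = 8 each; exact permutation, adjusted p = 0.00164), the largest rise of the list, and fell to 5.25 ± 1.16 at the second step. Tgfb1 rose from 6 to 9.38 ± 0.744, Nbeal2, needed for platelet granules, from 4.25 ± 0.463 to 7.12 ± 0.641 and Selp, the platelet selectin, from 3 to 5.75 ± 0.463. Tbxas1, the thromboxane synthase, fell from 14.5 ± 1.31 to 8.25 ± 1.16, F13a1, a clotting factor subunit, from 6.75 ± 0.463 to 3.75 ± 0.463 and Serpine2 from 3 to 0.125 ± 0.354. At the second step 5 rose and 6 fell of 37, where 23.3% of all genes were called. Cd36 rose from 0 to 1.38 ± 0.518, Mpig6b from 1 to 2, Plek from 2.12 ± 0.354 to 3.88 ± 0.835 and Itgb1 from 1.38 ± 0.518 to 2.62 ± 0.518. Alox12 fell from 3.38 ± 0.518 to 1.88 ± 0.354, Ptgs1 from 3 to 1.75 ± 0.463 and Pdgfb from 1.5 ± 0.535 to 0.125 ± 0.354. The largest adjusted p among the 8 named at this step was 0.0217. The summed strongest peaks of this list ran from 133 to 147, 124 to 133 and 118 to 123 at the 3 stages.

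Of 22 transcription factors shared with other lineages, 21 were tested at the first step, where 7 rose and 2 fell, with a median difference of 0.62; a total of 9 of 21 is near the 45.9% of all genes called. Erg, an Ets factor of stem cells and megakaryocytes, rose from 6.62 ± 0.744 to 14.6 ± 1.06, Fli1, its close relative, from 6.88 ± 1.36 to 9.88 ± 0.641, Ikzf1 from 7.62 ± 0.744 to 10.2 ± 0.463 and Lyl1, a relative of Tal1, from 3.62 ± 0.518 to 5 (n = 8 each; exact permutation, adjusted p = 0.00164 each). Etv6 fell from 13.8 ± 1.16 to 7.62 ± 1.19 and Meis1 from 9.25 ± 0.886 to 6.25 ± 1.16. At the second step 1 rose, Bcl11a, a repressor of fetal globin that also serves B cells, from 5.62 ± 0.518 to 8.25 ± 1.16, and 4 fell of 21, where 23.3% of all genes were called. Those were Runx1, from 15.4 ± 1.19 to 10.5 ± 2.33, Bach1, a haem-sensing repressor, from 5.12 ± 0.835 to 1.5 ± 0.535, Meis1, to 3.25 ± 1.04, and Gata2, which precedes Gata1 in progenitors, from 1.88 ± 0.354 to 0.875 ± 0.354 (adjusted p = 0.0129, and 0.00468 for the others named). In the deposited lists the split at the first step was 4 higher and 7 lower of 22, where 21.2% of all genes rose and 25.6% fell. It was 8 and 10 of 40 for the other erythroid genes and 8 and 16 of 41 for the other megakaryocyte genes. At the second step it was 0 and 6, 3 and 10, and 2 and 15 for the same lists in that order, where 6.12% of all genes rose and 16.6% fell.

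**Figure D5:**
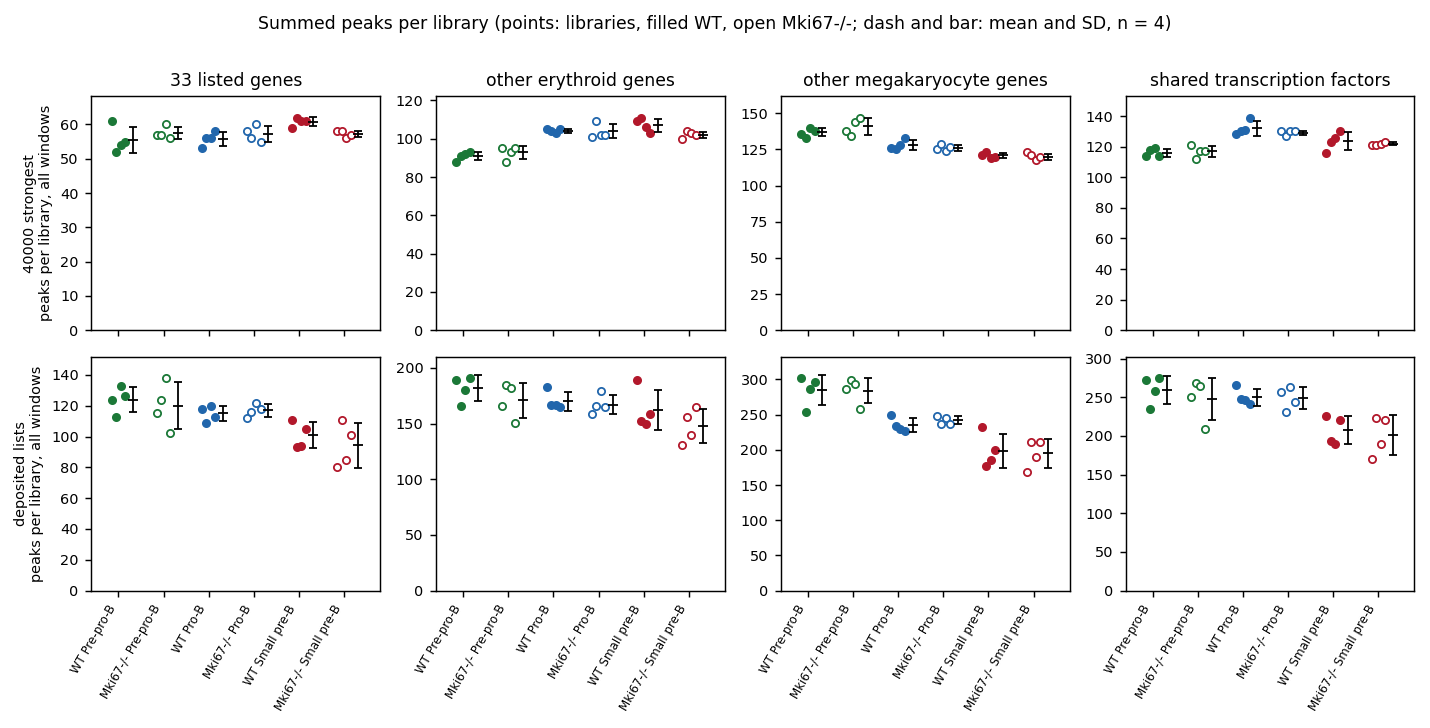
Summed peaks per library over the listed genes and the 3 other lists (columns) among the strongest peaks (top) and in the deposited lists (bottom); points are libraries, filled for WT and open for Mki67-/-, beside the mean and SD (n = 4). The listed genes stay between 52 and 62 strongest peaks in all 24 libraries, and the other megakaryocyte genes are lowest in small pre-B libraries.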

How the data were processed

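Chromatin accessibility was measured by ATAC-seq in 24 libraries, and the authors deposited 1 peak list per library in mm10 coordinates. Per the submitters' processing notes, Trimmomatic, MACS2, deepTools, DiffBind and DESeq2 were used, with no version, role or order given in the sources used here. Each deposited peak carries a score, a fold enrichment (ratio) at its summit, a -log10 p and a -log10 q, all as the authors' peak caller gave them. The lowest -log10 q in the deposited lists was 2, and the score was the whole part of 10 times the -log10 q in 99.9% of entries. Peaks were called per library.

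Entries that overlapped or touched were merged. The 40000 peaks of highest -log10 q were taken from each library to compare stages. Peaks overlapping a gene body and 10 kb on both sides by 1 bp were counted for 21627 protein-coding genes, of which those with a peak in at least 4 of the libraries compared were tested. The exact permutation test of the difference in means was two-sided and was computed over all genes with Benjamini-Hochberg adjustment, at a threshold of 0.05. Stage was permuted within genotype and genotype within stage. Regions are peaks of all libraries joined where they overlap. Background coverage was recovered from the fold and p of up to 3000 summits per library. Read counts were not used here. The NF-E2 motif was searched by its core, chosen after the data were seen in place of a longer form.

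The 33 genes and all lists were chosen with earlier results of these data known. Named in full are genes past the threshold, Gata1, Klf1, the globins, Itga2b and Pf4, the 3 genes with most peaks per group and the 3 smallest p per direction of genotype, and, of other lists, up to 4 per direction in order of p. Some genes that this rule names in the other lists are not reported here. The alternatives tried were other lists (deposited, 20000 strongest, stricter -log10 q), windows, overlap rules, filters, left-out libraries and a replicate block. Python 3.11.15, numpy 2.4.6, pandas 2.3.3, scipy 1.17.1, numba 0.67.0 and matplotlib 3.10.9 were used, and the test was tried on simulated data.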

Additional observations from a re-analysis of the deposited data

Results flagged for a closer look

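In 9 of 120 combinations of list, group and kind of peak list, 1 of the 4 libraries stood apart from the other 3. The measure was the gap to the nearest library as a share of the group's range. For continuous values chance gives about 1 in 20 such groups. These sums are whole numbers with ties, so that rate need not hold and the 9 cannot be judged against it. None of the 9 concerned the summed peaks of the 33 genes. For the other erythroid genes the share was 0.875 among the strongest peaks of Mki67-/- Pro-B (replicate 2 at 109, the others at 101 to 102) and 0.889 in the deposited lists of WT Pro-B (replicate 1 at 183). For the shared transcription factors it was 1 among the strongest peaks of Mki67-/- Pro-B, where replicate 2 had 127 and the others 130. Myeloid markers gave 1 among the strongest peaks of WT Pro-B (replicate 3 at 12, the others at 14) and of WT Small pre-B (replicate 3 at 23, the others at 21), and 0.833 in the deposited lists of WT Pre-pro-B (replicate 1 at 51). It was also 1 for stem markers in the deposited lists of Mki67-/- Pre-pro-B (replicate 4 at 67, the others at 75), for mast cell markers in those of WT Pre-pro-B (replicate 2 at 19, the others at 18) and for plasmacytoid dendritic markers among the strongest peaks of WT Pro-B (replicate 3 at 37, the others at 35). The test of the difference of steps between genotypes called 0 of the 27 and 0 of the 26 listed genes tested.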

How the results depend on the processing

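The counts of genes called depended on the kind of list and on the window. From pre-pro-B to pro-B, 5 rose and 4 fell among the strongest peaks; the counts were 8 and 8 in the deposited lists, 4 and 2 from the 20000 strongest, 1 and 2 for gene bodies alone, 3 and 2 for flanks of 5 kb, and 4 and 18 for covered length, where 78.7% of all genes were called. From pro-B to small pre-B, 2 rose and 1 fell; the counts were 2 and 9, 2 and 0, 2 and 0, 1 and 1, and 0 and 7 under the same settings. Omitting 3 libraries that earlier results had put in doubt (replicate 1 of WT Small pre-B, replicate 1 of Mki67-/- Small pre-B and, at the first step, Mki67-/- Pre-pro-B replicate 4) gave 2 lower at this step. Leaving out 1 library at a time gave 4 to 6 higher and 4 to 5 lower at the first step, and 2 to 4 higher and 1 to 3 lower at the second. The second step had 4 higher without WT Small pre-B replicate 1 or Mki67-/- Small pre-B replicate 3, and it had 2 or 3 lower without any 1 of its libraries except the Mki67-/- libraries replicate 3 of Pro-B and replicates 3 and 4 of Small pre-B, where it stayed at 1. The genotype comparison called 0 of the 19 to 31 listed genes tested, depending on the setting, under every setting run.

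The direction turned for Hbb-bt in the deposited lists (a difference of 1, adjusted p = 0.0439), for Itga2b in the deposited lists (-0.62) and by covered length (-53.5 bp), for Gp1ba with the 20000 strongest peaks (0.12) and for Nfe2 at the second step in the deposited lists (-0.88); the cause was not tested. Of the 9 genes called at the first step, Itga2b lost its call in 5 of the 144 runs that left out 1 library, and no direction turned there. All 48 such runs kept the calls of the second step.

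The summed peaks of the 33 genes moved with the list by construction. For WT and Mki67-/- pre-pro-B, WT and Mki67-/- pro-B, and WT and Mki67-/- small pre-B in that order, the means were 124, 120, 115, 117, 101 and 94.2 in the deposited lists, 117, 110, 112, 112, 98.5 and 89.5 for peaks with -log10 q from 5 up, and 98.2, 91.2, 99.8, 93.0, 82.8 and 74 from 10 up. The 20000 strongest peaks gave 25.5, 24.2, 29.8, 26.5, 32.5 and 32.5, and gene bodies alone 32.2, 32.8, 32.5, 31.5, 35.8 and 33. With 1 library left out they ran from 53.7 to 56.7, 56.7 to 58.0, 55.0 to 56.7, 56.3 to 58.0, 60.3 to 61.3 and 57.0 to 57.7. With peaks required to cover 0.5 of a region, 12 regions rose and 21 fell at the first step and 6 and 6 at the second, against 15 and 14, and 9 and 5.

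Libraries with the same replicate number did not deviate together (correlations of -0.04 to 0.03 across stages and -0.16 to 0.09 across genotypes, 8 of 24 and 6 of 12 highest with their own number). With the replicate number as a block, 4 rose and 3 fell at the first step, 0 and 0 at the second, where the exact permutation test also called 0 of all 15740 genes (4061 unadjusted under 0.05), and 0 by genotype. At both stage steps the smallest p that this exact test allows is 0.00781 with the block and 0.000408 without it. The part of this limit in the 0 calls of the second step was not tested. The deposited lists differ in how many weak peaks they hold, so a weak peak such as those of Gata1 and Treml1 that is not listed in a library is not shown to be absent there.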
